A study of Bos taurus with 41 samples.

Results

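The transcripts of 10 secreted proteins of the transforming growth factor beta (TGF-beta) family and its regulation were measured in elongated Day 16 bovine conceptuses and in endometrium. They were taken by gene symbol as a named family, with earlier results of these data known: the TGF-betas TGFB1, TGFB2 and TGFB3, the activin and inhibin beta subunits INHBA, INHBB and INHBE, the activin-binding protein follistatin (FST), the bone morphogenetic proteins BMP2 and BMP4, and growth differentiation factor 15 (GDF15). In the order given their identifiers are ENSBTAG00000020457, ENSBTAG00000005359, ENSBTAG00000012004, ENSBTAG00000048508, ENSBTAG00000049058, ENSBTAG00000006599, ENSBTAG00000003329, ENSBTAG00000005111, ENSBTAG00000003835 and ENSBTAG00000015618. All 10 were among the 16149 genes of the conceptus table and the 27270 genes of the endometrial table. All 10 had enough reads to be tested in conceptus tissue, and 9 in endometrium.

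The tissue came from estrus-synchronized Angus-Holstein heifers. In vitro produced (IVP) embryos were made from abattoir oocytes and moved into recipients on the seventh day of the cycle, whereas in vivo derived (IVD) conceptuses followed artificial insemination with the same bull, and both were recovered on Day 16, cut into sections and cultured for 12 h in serum-supplemented medium. Co-culture sections shared the well with an intercaruncular endometrial explant of a cyclic heifer that had not been bred, and mono-culture sections had no endometrium. IVP tissue gave 7 co-culture and 5 mono-culture libraries, IVD tissue 9 and 8 by their titles (the study's methods give other numbers of mono-culture libraries), and there were 12 libraries of endometrial explants taken from wells with an IVP section. Altogether 13 conceptuses stood behind the 29 conceptus libraries. Of these, 11 (4 IVP and 7 IVD) gave sections to both cultures and 5 gave 2 co-culture sections each, so sections were not separate animals, and C62a and C62b grew in 1 recipient. The endometrial libraries came from 7 uteri. A section is a piece of a conceptus that holds several cell layers, and an explant is a biopsy of mixed tissue. Fewer cells of a type and less RNA per cell therefore cannot be told apart in any value below.

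Ligands of this family are secreted as dimers that bring together type I and type II receptor kinases. TGF-betas and activins pass their signal mainly through SMAD2 and SMAD3, and BMPs through SMAD1, SMAD5 and SMAD9, all with the shared partner SMAD4. Control also lies outside the cell: latent TGF-beta-binding proteins hold TGF-betas in the matrix, convertases cut the precursors, and follistatin traps activins and, less tightly, some BMPs. In cattle, follistatin is known from work on oocytes and early embryos as a factor tied to developmental competence, and in the mouse embryo BMP4 from extraembryonic ectoderm takes part in the induction of mesoderm.

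Depth was 58583647 to 104436922 counted reads in conceptus libraries and 24593699 to 84030248 in endometrial ones. Levels are given as CPM, the library-size-scaled count, adjusted for library composition and are not corrected for gene length, so one gene's level cannot be set against another's. All 16 listed trophectoderm markers were detected in conceptus tissue, with summed levels of 10889 to 124753 CPM, against 594 to 2521 CPM in endometrium for the 14 found there. Stromal markers summed to 46.0 to 462 CPM in conceptus libraries and 4288 to 20507 CPM in endometrium. Endothelial markers summed to 6.54 to 78.8 CPM over 5 genes in conceptus libraries and 807 to 1923 CPM over 7 genes in endometrium. The endometrium list summed to 265 to 857 CPM over 10 genes in explants and 28.3 to 306 CPM over 3 genes in conceptus libraries. Both tissues thus carried the markers of their labels, though sums over unlike numbers of genes cannot be set against each other exactly. Epiblast and early mesoderm markers were less distinct. They summed to 131 to 947 CPM over 7 genes in conceptus libraries. In endometrium they summed to 3.56 to 667 CPM over 9 genes, with a median of 10.7 CPM, so the ranges overlapped. Among conceptus libraries, IVD mono-culture replicate 1 stood apart with the lowest mean log2 CPM of the trophectoderm list, 4.68, against 6.82 to 9.99 in the other 28.

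TGFB1 was the member that changed most clearly on endometrium. It encodes the latent cytokine TGF-beta 1, known for its roles in matrix production, epithelial plasticity and immune tolerance. In IVD co-culture it ranged from 32.3 to 115 CPM (median 78.5), against 18.4 to 52.8 CPM (median 36.3) in IVD mono-culture. All but 1 of the IVD co-culture libraries lay above every IVD mono-culture library, and the exception was the section of conceptus C50 at 32.3 CPM. The group means were 80.5 ± 28.8 CPM and 36.3 ± 10.5 CPM (SD, n = 9 and 8), a rise of 1.15 on the log2 scale (SE 0.24), or 2.22-fold. The edgeR quasi-likelihood test gave an adjusted p of 0.0078, where 6.33% of the 15942 genes tested passed a false discovery rate (FDR) of 0.05, 496 higher and 513 lower. TGFB1 was the single member of the 10 to pass there, and also the single one with an unadjusted p under 0.05. Over all genes, 3745 (23.5%) had an unadjusted p under 0.05 in that comparison. With the conceptus as a block, which pairs sections of one conceptus, TGFB1 rose by 1.17 (adjusted p = 0.039) while the count over all genes was 206 in place of 1009.

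In IVP tissue TGFB1 had 57.0 to 103 CPM in co-culture (median 78.5). IVP mono-culture held 92.9 CPM in the section of C62a and 33.4, 39.7, 44.8 and 45.8 CPM in the other 4. The co-culture range therefore cleared 4 of the 5 mono-culture libraries and overlapped the fifth. The log2 difference of 0.62 (SE 0.28) did not pass (edgeR adjusted p = 0.247). In fits that left out 1 library or conceptus it ran from 0.42 to 1.01, with adjusted p between 0.056 and 0.574, so none passed. Without the C62a mono-culture library, the one with the high value, it was 0.94 (adjusted p = 0.071). No gene of the table passed in this comparison (0% of those tested by edgeR, with 2914 at an unadjusted p under 0.05, 321 past FDR in DESeq2 and 0 in limma voom). TGFB1 and INHBE were the 2 members with an unadjusted p under 0.05, and 0 members passed FDR.

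Averaged over both conceptus types, TGFB1 rose by 0.88 (SE 0.18, edgeR adjusted p = 0.0028), and no left-out library or conceptus ended that call. Here 18.9% of genes passed, 1461 higher and 1545 lower, and 1 member was higher and 1 lower. The median log2 change of the 10 members was -0.03, against -0.04 over all genes, and it was -0.42 against -0.05 in IVP tissue and 0.05 against -0.02 in IVD tissue. The change did not pass a test of difference between IVP and IVD tissue: the IVP change minus the IVD change was -0.53 (SE 0.36, adjusted p = 1.00). For that difference 0% of genes passed in edgeR (281 at an unadjusted p under 0.05, 0 in DESeq2 and 0 in limma voom), and none of the 10 members had an unadjusted p under 0.05.

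**Figure D1:**
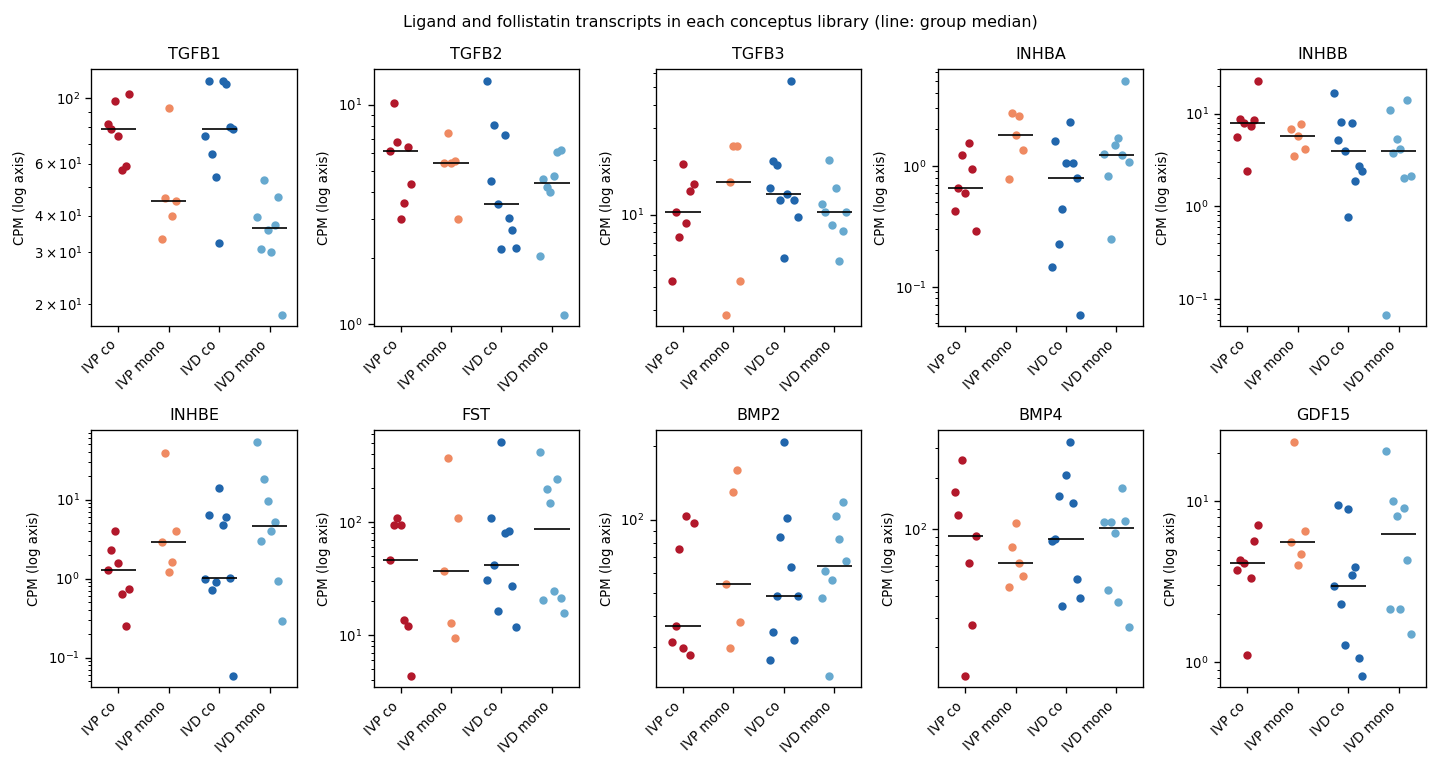
Level of each of the 10 transcripts (CPM, log axis) in every conceptus library, with 1 point per library, columns for co-culture and mono-culture of IVP (n = 7 and 5) and of IVD tissue (n = 9 and 8), and a line at the group median. TGFB1 shows co-culture medians of 78.5 CPM in both types above mono-culture medians of 44.8 (IVP) and 36.3 CPM (IVD), whereas the groups overlap widely in the other panels.

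Sections of the same conceptus gave the same picture for TGFB1. It was higher in co-culture in 9 of the 11 conceptuses with both cultures, 3 of 4 IVP and 6 of 7 IVD, with a mean log2 difference of 0.95 ± 0.78 (SD, n = 11). The largest difference was in C71, with 78.5 CPM in co-culture and 18.4 CPM in mono-culture. The titles of these C71 sections open with unlike uterus codes, E70 and E69. The exceptions were C62a, with 57.0 CPM in co-culture and 92.9 CPM in mono-culture, and C50, with 32.3 and 37.0 CPM. Between the 2 co-culture sections of one conceptus TGFB1 differed by at most 1.76 times, the smallest such maximum of the 10 members.

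Transcripts of a list of red cell markers were set beside TGFB1 in the same samples. The listed red cell markers found in the conceptus table, 3 of 7, summed to 2.98 to 55.5 CPM in IVP co-culture and 1.55 to 54.8 CPM in IVP mono-culture, and to 1.65 to 71.1 CPM in IVD co-culture and 1.43 to 9.18 CPM in IVD mono-culture. In IVD tissue, where 6.33% of all genes passed in edgeR, 2 of the 3, the globins HBA and HBM, rose. HBA rose by 4.87 on the log2 scale (SE 0.78, adjusted p = 0.0023). The paper discusses both globins as conceptus genes that may serve oxygen tension in trophoblast, so the name of the list does not identify a cell type. The sum of the 3 was higher in co-culture in 9 of 11 conceptuses and moved in the same direction as TGFB1 in 9 of 11. TGFB1 was itself higher in 9 of 11, so most of that agreement was set in advance. In C50 both were lower in co-culture, TGFB1 with 32.3 CPM against 37.0 CPM and the sum with 1.65 CPM against 1.81 CPM. The conceptuses in which they moved apart were C66 and C62a. In C66 TGFB1 had 115 CPM in co-culture and 46.3 CPM in mono-culture, while the sum had 3.01 and 3.85 CPM. In C62a TGFB1 had 57.0 and 92.9 CPM, while the sum had 55.5 and 54.8 CPM. Of 10 endometrial markers, 3 were in the conceptus table (PGR, MUC1 and WFDC2), and MUC1 rose in IVD tissue by 1.06 (SE 0.31, adjusted p = 0.042). The 3 summed to 67.1 to 221 CPM in IVP co-culture and 58.5 to 134 CPM in IVP mono-culture, and to 68.3 to 306 CPM in IVD co-culture and 28.3 to 107 CPM in IVD mono-culture. Stromal markers, which the explants carry in plenty, had sums of 72.2 to 238 CPM (median 195) in IVP co-culture and 68.1 to 387 CPM (median 99.3) in IVP mono-culture, and of 46.0 to 401 CPM (median 128) in IVD co-culture and 47.5 to 462 CPM (median 181) in IVD mono-culture. The part of blood cells or endometrial cells in the TGFB1 difference was not tested.

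The other TGF-betas did not pass in any comparison. TGFB2, which in the mouse is needed for heart and skeletal development, had 3.02 to 10.2 CPM in IVP co-culture (median 6.13), against 3.02, 5.40, 5.41, 5.55 and 7.40 CPM in IVP mono-culture. IVD sections held 2.20 to 12.9 CPM in co-culture (median 3.53) and 1.11 to 6.19 CPM in mono-culture (median 4.40). The log2 changes were 0.11 (SE 0.43) in IVP and 0.33 (SE 0.36) in IVD tissue. TGFB2 was higher in co-culture in 6 of 11 conceptuses, close to an even split.

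TGFB3, the isoform linked in the mouse to palate closure, had 4.35 to 19 CPM in IVP co-culture (median 10.4), against 2.83, 4.30, 15.2, 23.8 and 23.9 CPM in IVP mono-culture. The 3 high IVP mono-culture values came from C23, C62a and C62b. In IVD tissue the range was 5.79 to 54.4 CPM in co-culture (median 13.0) and 5.60 to 19.8 CPM in mono-culture (median 10.4), and the value of 54.4 CPM came from 1 of the 2 co-culture sections of C26. The log2 changes were -0.32 (SE 0.48) in IVP and 0.68 (SE 0.41) in IVD tissue. They pointed in opposite directions, but their difference of -1.0 (SE 0.63) did not pass (adjusted p = 1.00).

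The activin and inhibin beta subunits did not move as one group. INHBE encodes the beta E subunit, known mainly from liver, and was the member that fell when both types were averaged. It had 0.248 to 4.00 CPM in IVP co-culture (median 1.28), against 1.21, 1.6, 2.89, 3.98 and 38.7 CPM in IVP mono-culture. In IVD tissue it ranged from 0.0589 to 13.9 CPM in co-culture (median 1.02) and from 0.291 to 54.2 CPM in mono-culture (median 4.60). Single mono-culture sections, C23 at 38.7 CPM and C5 at 54.2 CPM, lay far above the rest of their groups. INHBE fell by 2.14 on the log2 scale in the average of both types (SE 0.70, edgeR adjusted p = 0.032), with -2.65 (SE 1.07, adjusted p = 0.200) in IVP and -1.63 (SE 0.89, adjusted p = 0.268) in IVD tissue.

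That call rested on few libraries. Without the C23 mono-culture library the averaged change of INHBE was -1.14 (adjusted p = 0.242), and without the C5 library -1.63 (adjusted p = 0.081). It also ended without replicate 1 or replicate 6 of IVP co-culture, at adjusted p-values of 0.051 and 0.053. With the conceptus as a block, INHBE changed by -1.49 (adjusted p = 0.054), so the paired fit did not keep the call. Within conceptuses INHBE was lower in co-culture in 9 of 11, in all 4 IVP and 5 of 7 IVD. The exceptions were C50, with 13.9 CPM in co-culture and 5.23 CPM in mono-culture, and C66, with 4.80 and 0.938 CPM.

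INHBA, the beta A subunit that forms activin A, was detected at low counts in the conceptus. It had 0.287 to 1.56 CPM in IVP co-culture (median 0.651), against 0.784, 1.34, 1.80, 2.58 and 2.71 CPM in IVP mono-culture, and 0.0589 to 2.32 CPM in IVD co-culture (median 0.788), against 0.250 to 5.07 CPM in IVD mono-culture (median 1.2). The groups overlapped in both types. Its averaged log2 change was -1.05 (SE 0.42, edgeR adjusted p = 0.082), and this passed with 1 factor of unwanted variation (-1.13, adjusted p = 0.046) and in limma voom (-1.21, adjusted p = 0.025). By the mean log2 level of its sections, INHBA was lower in co-culture in 10 of 11 conceptuses, with C22 the exception at 1.60 CPM in co-culture and 0.250 CPM in mono-culture.

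INHBB, the beta B subunit of activin B, went neither way. Its range was 2.43 to 22.7 CPM in IVP co-culture (median 7.89), against 3.46, 4.19, 5.80, 6.85 and 7.75 CPM in IVP mono-culture, and 0.765 to 16.8 CPM in IVD co-culture (median 3.92), against 0.0687 to 14.1 CPM in IVD mono-culture (median 3.93). It was higher in co-culture in 6 of 11 conceptuses. The log2 changes were 0.69 (SE 0.72) in IVP and 0.06 (SE 0.58) in IVD tissue. INHA, the alpha subunit that turns these beta chains into inhibins, was at most 0.724 CPM in any conceptus library.

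FST varied more between conceptuses than with culture. Its level ran from 4.40 to 517 CPM over the 29 libraries. IVP co-culture held 4.40 to 108 CPM (median 46.8), against 9.41, 12.8, 37.3, 110 and 368 CPM in IVP mono-culture, and IVD co-culture held 11.8 to 517 CPM (median 41.7), against 15.9 to 419 CPM in IVD mono-culture (median 87.3). Both conceptus types had sections at both ends. The log2 change was -1.0 (SE 0.99) in IVP and -0.42 (SE 0.83) in IVD tissue, and FST was higher in co-culture in 5 of 11 conceptuses. With SEs of this size a change of 2-fold in either direction could not be told from none.

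Neither BMP passed for culture. BMP2, which in the mouse is needed for amnion and heart formation, had 27.7 to 104 CPM in IVP co-culture (median 36.4), against 29.7, 37.8, 54.3, 130 and 159 CPM in IVP mono-culture. It had 26.3 to 209 CPM in IVD co-culture (median 48.5), against 22.8 to 118 CPM in IVD mono-culture (median 64.6). The log2 changes were -0.52 (SE 0.50) in IVP and 0.04 (SE 0.42) in IVD tissue, and BMP2 was lower in co-culture in 8 of 11 conceptuses.

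BMP4 had 13.6 to 254 CPM in IVP co-culture (median 90.8), against 45.1, 53.1, 63.3, 77.9 and 108 CPM in IVP mono-culture, and the 5 mono-culture values lay inside the co-culture range. In IVD tissue it had 34.9 to 326 CPM in co-culture (median 86.6), against 26.5 to 175 CPM in mono-culture (median 102). The changes were 0.60 (SE 0.59) in IVP and 0.50 (SE 0.48) in IVD tissue. BMP4 was higher in co-culture in 6 of 7 IVD conceptuses but in 1 of 4 IVP conceptuses. That contrast was not borne out by the fitted difference of changes, 0.09 (SE 0.75, adjusted p = 1.00).

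GDF15, a divergent member that is induced by cellular stress and signals to the brain through GFRAL, had 1.10 to 7.18 CPM in IVP co-culture (median 4.13), against 4.04, 4.70, 5.60, 6.52 and 23.5 CPM in IVP mono-culture. IVD sections held 0.824 to 9.46 CPM in co-culture (median 2.99), against 1.49 to 20.4 CPM in mono-culture (median 6.23). The highest mono-culture values were again those of C23 and C5. Its averaged log2 change was -1.0 (SE 0.41, edgeR adjusted p = 0.087), with -1.08 (SE 0.63) in IVP and -0.92 (SE 0.53) in IVD tissue. In edgeR fits that left out 1 library or conceptus the averaged change ran from -1.24 to -0.51, with adjusted p between 0.047 and 0.448. It passed without replicate 2 or replicate 5 of IVD co-culture. GDF15 was lower in co-culture in 9 of 11 conceptuses, the exceptions being C62b and C8.

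**Figure D2:**
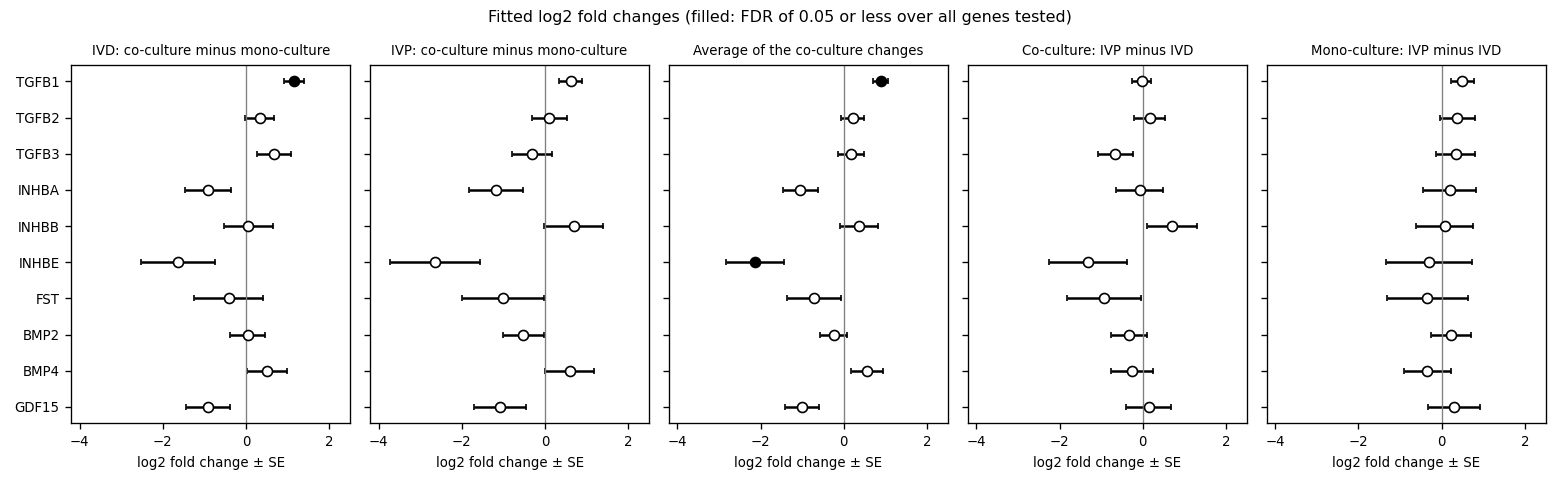
Fitted log2 fold change with its SE for each of the 10 transcripts in 5 comparisons, each panel titled by what was subtracted from what; filled points passed an FDR of 0.05 over all genes tested. Filled points are TGFB1 in IVD tissue (1.15) and in the average of both types (0.88), and INHBE in the average (-2.14); no point is filled in the 2 panels of IVP minus IVD.

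**Figure D3:**
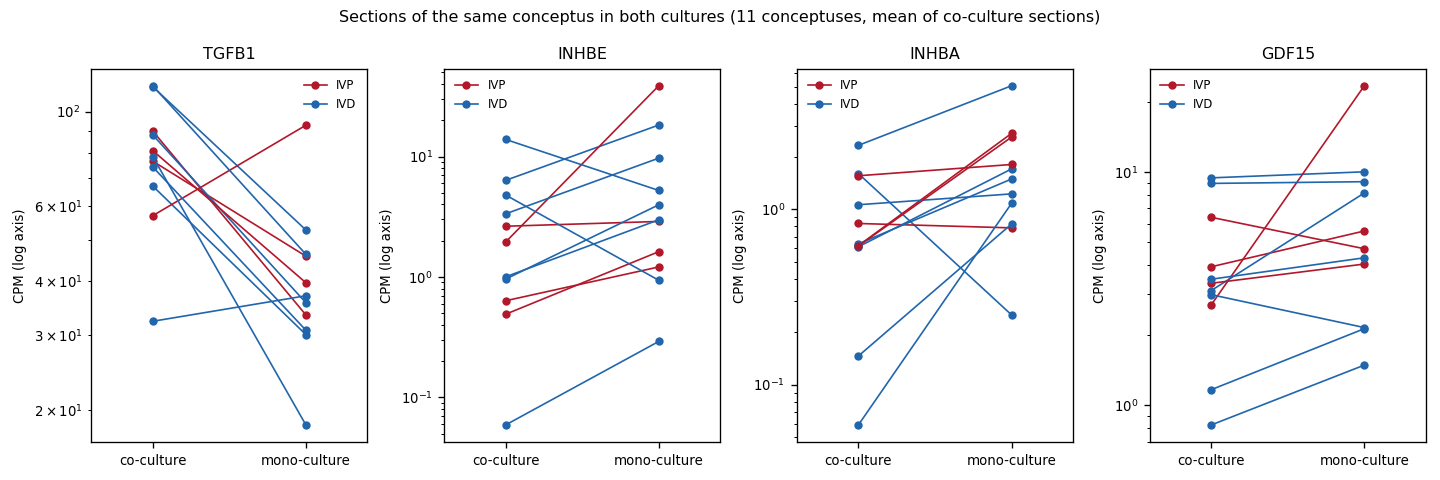
Level (CPM, log axis) in co-culture, on the left, and mono-culture, on the right, of sections from the same conceptus for TGFB1, INHBE, INHBA and GDF15, with 1 line for each of 11 conceptuses and the mean of co-culture sections where there were 2. TGFB1 lines fall to the right in 9 of 11 conceptuses, and INHBE and GDF15 lines climb to the right in 9 of 11. INHBA climbs in 9 of 11 as drawn, since C24 had 0.831 CPM as the mean of its co-culture sections and 0.784 CPM in mono-culture but was lower in co-culture by mean log2 level.

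Conceptus type made no difference that passed for any member. Between IVP and IVD mono-culture the 10 log2 differences lay between -0.35 (BMP4) and 0.50 (TGFB1). No gene passed there (0% in edgeR, 331 at an unadjusted p under 0.05, 1 past FDR in DESeq2 and 0 in limma voom), and 0 members had an unadjusted p under 0.05. Between IVP and IVD co-culture the members ran from -1.32 (INHBE, SE 0.95) to 0.71 (INHBB, SE 0.60). In that comparison 0.0251% of genes passed, 3 higher and 1 lower (152 in DESeq2). An unadjusted p under 0.05 was found for 2170 genes (13.6%) and for 0 of the members. The widths of these estimates differed, from an SE of 0.24 for TGFB1 to 0.95 for INHBE in co-culture, so differences of 2-fold in FST or INHBE lay within the error.

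The spread among conceptuses was itself measured, in a test added after the data were seen. It asked whether the sections of one conceptus resembled each other more than sections of others of the same type and culture, over the 27 libraries of the 11 conceptuses in both cultures. In this F test (edgeR, 9 and 14 degrees of freedom) 23.2% of 15995 genes passed. Among the members, 5 of 10 passed: FST (adjusted p = 3.3e-04), INHBB (0.0102), INHBE (0.0158), GDF15 (0.0228) and BMP2 (0.0448). TGFB3 and BMP4 came close (0.0522 and 0.0516), and TGFB1 had the largest p of the 10 (0.521). Both FST and INHBB passed whichever conceptus was left out, whereas BMP2 was lost without any of 7 conceptuses (C22, C23, C26, C50, C62a, C66 or C71), GDF15 without C22, C47 or C71, and INHBE without C71.

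Some of the spread lay within conceptuses. BMP4 had 121 CPM in 1 co-culture section of C23 and 13.6 CPM in the other, an 8.89-fold ratio. INHBE differed 8.27 times, INHBA 4.68 times and INHBB 4.23 times between the sections of C26. GDF15 differed 3.89 times between those of C23. The 2 sections of a conceptus were also laid on different uteri, so position along the conceptus and uterus cannot be told apart.

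FST, INHBE and GDF15 were highest mostly in sections with a low mean log2 level of the trophectoderm markers. The 5 libraries with the most FST (C50 co-culture at 517 CPM, C5 mono-culture at 419 CPM, C23 mono-culture at 368 CPM, C50 mono-culture at 242 CPM and C22 mono-culture at 196 CPM) were also the 5 with the lowest mean log2 CPM of the trophectoderm list, 6.82, 4.68, 7.39, 7.88 and 7.30. In the other 24 libraries that mean was 8.13 to 9.99 and FST did not exceed 150 CPM. All 5 still carried trophectoderm, with summed markers of 10889 to 26605 CPM, and by that sum the C50 co-culture section (26605 CPM) stood above 3 of the other 24, IVP mono-culture replicate 5, IVD mono-culture replicate 4 and IVD co-culture replicate 2 (22503, 23711 and 26403 CPM). Of the 5 libraries with the most INHBE, and likewise with the most GDF15, 4 were in that set, and for FST, INHBE and GDF15 alike 2 of the top 5 were among the 5 highest in hypoblast markers. INHBB went the other way at the extremes, with 0.0687 CPM in C5 mono-culture and 0.765 CPM in C50 co-culture, its lowest values. Between cultures, 4 of the 16 trophectoderm genes, KRT8, KRT18, KRT19 and TEAD4, rose in the average of both types, and 0 fell. In edgeR 18.9% of all genes passed there, 1461 higher and 1545 lower. The list median was 0.31, against -0.04 over all genes, and the list mean was higher in co-culture in 4 of 11 conceptuses. Of 7 epiblast and early mesoderm genes 2 fell in that average, EOMES by 3.97 and MIXL1 by 1.89 (edgeR adjusted p = 0.030 and 0.039), with a list median of -0.76. Of 10 stromal genes 1 fell, LUM by 2.70 (adjusted p = 0.027), with a median of -0.77. In lists this short, such counts of calls cannot be told from the share over all genes. These are values of the same libraries set beside each other, with no test, and the part of tissue composition in the INHBE and GDF15 differences was not tested.

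**Figure D4:**
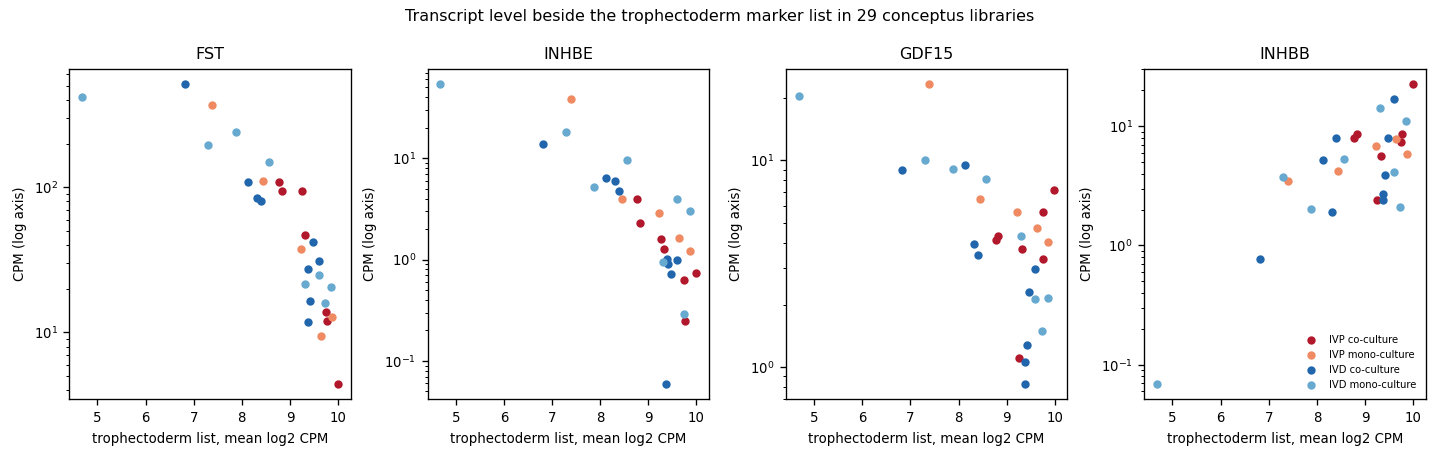
Level of FST, INHBE, GDF15 and INHBB (CPM, log axis) against the mean log2 CPM of 16 trophectoderm markers in each of the 29 conceptus libraries, coloured by group. The 5 libraries left of a marker mean of 8.0 hold the 5 highest FST values, 196 to 517 CPM, and INHBB has its lowest value, 0.0687 CPM, in the library at 4.68.

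With group means removed, the members that tracked each other over the 29 libraries were INHBE and FST (Pearson r = 0.85), INHBE and GDF15 (r = 0.74) and FST and GDF15 (r = 0.64). TGFB2 and INHBB followed at r = 0.60, and INHBB ran against FST at r = -0.54. TGFB1 had no partner above 0.44 (TGFB3). Libraries of one conceptus, and their shared depth and composition, enter all of these values, so they are descriptions only.

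The genes most like each member by the same measure, among the 10867 named genes whose mean log2 CPM reached 1, differed from member to member. TGFB1 was nearest to PNPLA8 (r = 0.80), SLC2A3 (r = 0.79), which encodes the glucose transporter GLUT3, and GZF1 (r = 0.77). FST was nearest to AKAP1 (r = 0.96), the tropomyosin gene TPM3 (r = 0.95) and the G-protein subunit gene GNG2 (r = 0.95). BMP4 was nearest to the receptor gene KIT (r = 0.92), EHD4 (r = 0.92) and the matrix protease gene ADAMTS5 (r = 0.91). INHBE was nearest to the glycine transporter gene SLC6A9 (r = 0.93), RAB39B (r = 0.91) and PODXL (r = 0.89), and INHBB to F2RL2 (r = 0.93), GNA15 (r = 0.90) and NOTCH1 (r = 0.89). The nearest genes of GDF15 were CREB3L1, RAB6A and CAPN2 (r = 0.86, 0.86 and 0.85), of TGFB2 RHOQ, IFNGR2 and MET (r = 0.86, 0.80 and 0.74) and of BMP2 SUPT5H, CASD1 and URAD (r = 0.82, 0.78 and 0.77). TGFB3 had the loosest neighbours, SMPD1, CDC42SE1 and SIRT5 (r = 0.70, 0.67 and 0.67). INHBA lay under the level minimum and was given none.

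Receptors of the family changed in both directions on endometrium. Of 13 receptor and co-receptor genes tested, 1 was higher and 3 lower in the average of both types, beside the 18.9% of all genes that passed, and the list median of -0.02 was close to the -0.04 of all genes. ACVR2B, a type II receptor for activins, had group means of 14.6 ± 3.25 CPM in IVP co-culture (SD, n = 7) and 10.9 ± 3.39 CPM in IVP mono-culture (n = 5), and 13.4 ± 2.22 CPM in IVD co-culture (n = 9) and 10.3 ± 1.36 CPM in IVD mono-culture (n = 8), a rise of 0.40 (adjusted p = 0.017 in edgeR). TGFBR1, the type I receptor for TGF-betas, fell by 0.53 (adjusted p = 0.018) and averaged 32.1 ± 10.3 CPM in IVP co-culture and 42.7 ± 4.28 CPM in IVP mono-culture, and 30.0 ± 9.52 CPM in co-culture and 47.0 ± 8.23 CPM in mono-culture of IVD tissue. The BMP receptors BMPR1B and BMPR2 fell by 1.10 (adjusted p = 0.032) and 0.48 (adjusted p = 0.048), and those calls were lost in 7 and 20 of the 29 fits that left out 1 library. The paired fit with the conceptus block ended the calls of ACVR2B (adjusted p = 0.067) and BMPR2 (adjusted p = 0.081), and that of TGFBR1 in IVD tissue alone, where the change of -0.65 had an adjusted p of 0.049 and, with the block, 0.11.

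Of 8 SMAD genes 1 changed in the average, where 18.9% of all genes did, and the list median was -0.06, against -0.04 over all genes. SMAD1, a signal carrier of BMPs, fell by 0.89 in the average (SE 0.24, edgeR adjusted p = 0.012), with means of 74.6 ± 33.3 CPM in IVP co-culture and 139 ± 69 CPM in IVP mono-culture, and 93.3 ± 55.5 CPM in IVD co-culture and 171 ± 47.0 CPM in IVD mono-culture. No left-out library ended this call. The inhibitory SMAD7 had -0.49 (adjusted p = 0.137).

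Among 16 binding and latency genes tested, 2 were higher and 1 lower in the average, a share close to the 18.9% of all genes, and the list median was -0.01. LTBP3, a latent TGF-beta-binding protein, rose by 1.60 in IVD tissue (SE 0.35, edgeR adjusted p = 0.010), with 9.74 ± 3.81 CPM in IVD co-culture and 3.21 ± 0.858 CPM in IVD mono-culture, and by 1.15 in the average (adjusted p = 0.0059). Its IVD call did not hold with the conceptus block (adjusted p = 0.070). FSTL3, a follistatin-like activin binder, rose by 0.73 in the average (adjusted p = 0.013), with 51.7 ± 9.96 CPM in IVP co-culture and 29.7 ± 9.15 CPM in IVP mono-culture. BMPER, a BMP modulator, was called lower, but 13.2 CPM in 1 IVD mono-culture library was its maximum and its medians were at most 0.0371 CPM in all 4 groups. It lost the call in the paired fit with the block (adjusted p = 0.40) and in 1 fit that left out a library, and could not be tested in 3 others.

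Processing proteases had a median of -0.43 over 7 genes in the average, against -0.04 over all genes. Of these 7, 2 fell, beside the 18.9% of all genes that passed. PCSK7, a proprotein convertase, fell by 0.43 in the average (adjusted p = 0.0057 in edgeR) and by 0.63 in IVD tissue (adjusted p = 0.0081, and 0.055 with the conceptus block), with 37.9 ± 7.22 CPM in IVD co-culture and 58.6 ± 9.07 CPM in IVD mono-culture. TLL2, a tolloid-like protease, did not exceed 0.859 CPM, and its call (adjusted p = 0.048) was lost in 19 of 29 such left-out fits and with the block (adjusted p = 0.37). FURIN, the convertase best known for cutting TGF-beta precursors, had -0.57 (SE 0.39, adjusted p = 0.324). Other ligands of the family had 8 genes tested of 22 listed, and 0 passed in edgeR in any of the culture comparisons. BMP6 had the smallest p of them in the average (0.96, SE 0.51, adjusted p = 0.188).

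Among 18 known transcriptional targets of SMAD signalling, 4 rose and 0 fell in the average, where 18.9% of all genes passed, and 2 rose in IVD tissue, where 6.33% did. In the average the share called in either direction was close to that of all genes. The 4 calls of the list were all rises, whereas over all genes 1461 were higher and 1545 lower. SNAI1, a repressor of E-cadherin, had 55.1 ± 21.3 CPM in IVP co-culture and 26.9 ± 9.68 CPM in IVP mono-culture, and 38.2 ± 9.16 CPM in IVD co-culture and 21.2 ± 4.68 CPM in IVD mono-culture, a rise of 0.94 (SE 0.17, edgeR adjusted p = 0.0014). GADD45B rose by 1.2 (adjusted p = 0.0083) and TGIF1 by 0.58 (adjusted p = 0.029). In IVD tissue alone SNAI1 rose by 0.85 (adjusted p = 0.023), and the conceptus block took that adjusted p to 0.065 and that of TGIF1 in the average to 0.056. The TGIF1 call was also lost in 3 of the 29 fits that left out a library. The list median was 0.04, and the other 14 did not pass; SNAI1, GADD45B and TGIF1 also answer to signals other than SMADs.

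Genes of the integrated stress response, the pathway through ATF4 that can induce GDF15, changed in both directions. In the average 3 of 15 rose and 2 fell, beside the 18.9% of all genes that passed, with a list median of 0.04, and GDF15 itself did not pass. DDIT4 rose by 1.56 (SE 0.40, edgeR adjusted p = 0.0090), CHAC1 by 1.4 (adjusted p = 0.0041) and PPP1R15A, named after its value was seen, by 1.27 (adjusted p = 0.017). ATF5 fell by 1.15 (SE 0.20, adjusted p = 9.8e-04) and SESN2 by 0.53 (adjusted p = 0.0041). In IVD tissue ATF5 fell by 1.35 (adjusted p = 0.0051), with 4.94 ± 1.77 CPM in IVD co-culture and 12.6 ± 3.69 CPM in IVD mono-culture. CHAC1 rose there by 1.33 (adjusted p = 0.038), but the paired fit with the block gave 0.088 and 9 of the 29 fits that left out a library lost it. No gene of any of these 7 lists passed in IVP tissue alone in edgeR, where 0% of all genes passed, so this says nothing particular about the lists.

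All members but INHBE were found in every endometrial library. TGFB1 ranged from 45.7 to 283 CPM (median 137), TGFB2 from 12.9 to 50.6 CPM (median 24.2) and TGFB3 from 8.72 to 117 CPM (median 28.6) over the 12 libraries. INHBA ranged from 25.3 to 99.9 CPM (median 60.8) and INHBB from 6.36 to 47.3 CPM (median 27.1). FST ranged from 4.07 to 236 CPM (median 44.6), a ratio of 58.0 between the highest and lowest library. BMP2 ran from 11.7 to 66.4 CPM (median 25.8), BMP4 from 9.85 to 99.9 CPM (median 25.1) and GDF15 from 3.99 to 15.7 CPM (median 7.69). INHBE was at 0 in 10 libraries and had 2 counts in each of the other 2, where 3 counts, the limit that a count of 0 allows, would be 0.0357 to 0.130 CPM.

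Whether uteri differed was tested over the 10 libraries of 5 uteri with 2 explants each. In edgeR 7.48% of 17396 genes passed, and 0 of the 9 members tested. Unadjusted p was under 0.05 for 7 members, and for 5840 (33.6%) of all genes tested. The lowest adjusted values among the members were those of TGFB2 (0.073), FST (0.079) and BMP2 (0.098). The outcome turned on the fit. Without the filter on low counts 6 members passed, among 3379 genes. In a DESeq2 likelihood ratio test 7 members passed, among 5540 genes. Without uterus E14, TGFB1 passed (adjusted p = 0.046). Explants of one uterus were not alike in TGFB3, with 87.2 and 8.72 CPM in E17, a 9.99-fold ratio, or in FST, with 236 and 33.3 CPM in E14, a 7.08-fold ratio. The 2 explants of a uterus had held different conceptuses, so that explant and conceptus cannot be told apart.

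In 7 cultures both the IVP conceptus section and its endometrial explant were sequenced. The tables were made with different aligners and scaled separately, so the values are set side by side with no test. INHBA had 0.287 to 1.56 CPM in the conceptus and 48.8 to 99.9 CPM in endometrium, and the ranges did not meet. TGFB2 had 3.02 to 10.2 CPM in the conceptus and 18.8 to 50.6 CPM in endometrium. TGFB3 was also higher in endometrium in 7 of 7 cultures, and TGFB1, INHBB and GDF15 in 6 of 7. In the other direction stood INHBE, at 0.248 to 4.00 CPM in the conceptus and at 0 in all 7 explants, BMP2, higher in the conceptus in 6 of 7, and BMP4, higher in 5 of 7 and reaching 254 CPM in the conceptus and 45.8 CPM in endometrium. FST was split, higher in endometrium in 4 of 7.

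**Figure D5:**
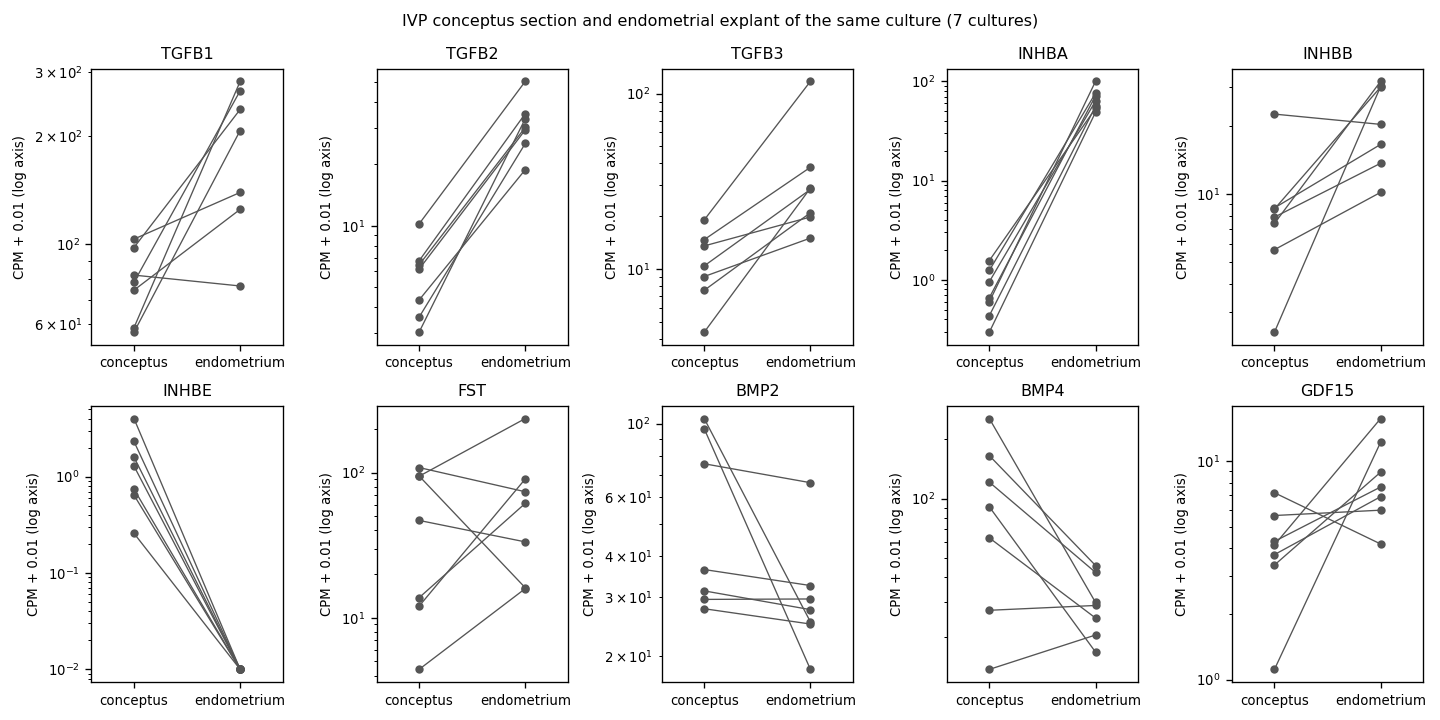
Level of each of the 10 transcripts in the IVP conceptus section (left) and in the endometrial explant (right) of the same culture, as CPM with 0.01 added so that 0 can be drawn on a log axis, with 1 line for each of 7 cultures. INHBA climbs from 0.287 to 1.56 CPM in conceptus to 48.8 to 99.9 CPM in endometrium in every culture, and INHBE drops to 0 in every explant.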

How the data were processed

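RNA-seq of poly(A) RNA from stranded libraries was measured in 41 samples. The authors trimmed reads with Trimmomatic, aligned conceptus reads with HISAT2 and endometrial reads with STAR (genome ARS-UCD1.2), and counted them per gene with featureCounts; versions, the strand setting and the handling of multiply aligned reads are not given in the sources used here. The deposited values are raw counts. The conceptus table held fewer genes than the endometrial one, 16149 against 27270, and 15942 of them passed the count filter used here. It may have lost genes of low count before deposit, which the paper does not state. Left out were 28 columns of endometrial counts that match no sample here, and 1 blank line.

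The members and gene lists were chosen with earlier results of these data known. Groups came from the titles, and IVP co-culture replicate 1, whose treatment field names medium alone, was grouped by its title. All conceptus libraries share one batch label and all endometrial libraries another, so these labels split no table. Culture repetitions have no separate label. The paper describes a single uterus for each repetition, and titles of mono-culture sections also open with a uterus code. That code differs between the cultures of C71. It also differs between the co-culture sections of C23, C24, C26, C47 and C62b, so some pairs of one conceptus cross codes. Differences between repetitions were not tested. Testing used edgeR 4.0.16 in R 4.3.3, after filterByExpr at a count of 10 and a total of 15: TMM scaling, then a quasi-likelihood fit with one mean per group over the 29 conceptus libraries, with Benjamini-Hochberg adjustment over all 15942 genes and an FDR of 0.05. For log2 CPM the prior count was 1. Replicates are sections, several from one conceptus, so p-values measure the spread between sections. Sections of one conceptus are of the same animal and pair the cultures; after removal of group means, the correlation of such a pair across the 1000 genes of highest variance was over 0.1 in 15 of 16 (median 0.65, lowest -0.0033). The main fit has no block.

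Named were all members, up to 4 genes of each list with the smallest p, and the 3 nearest genes of each member; 1 gene of the SMAD target list is not reported here by name. The nearest genes and member correlations are Pearson r of log2 CPM. Alternatives were RLE factors, upper-quartile scaling, no filter, a minimum mean CPM of 1, a fit of the 2 compared groups, 1 factor of unwanted variation, a block for the conceptus or for the title number, sums over the sections of a conceptus, limma voom 3.58.1 (random conceptus block), DESeq2 1.42.0, and leaving out each library; leaving out each conceptus, and the test among conceptuses of one type, were added after the data were seen. Code was tested on simulated data.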

Additional observations from a re-analysis of the deposited data

Results flagged for a closer look

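Of the 40 combinations of a member and a conceptus group, 3 held a library far from the others of its group, where chance alone flags about 1 in 20. INHBB had its lowest IVD mono-culture value, 0.0687 CPM, in replicate 1 (C5), and the next was 2.01 CPM. GDF15 had its lowest IVP co-culture value, 1.10 CPM, in replicate 4 (C23), and the next was 3.34 CPM. GDF15 also had its highest IVP mono-culture value, 23.5 CPM, in replicate 2 (C23), and the next was 6.52 CPM. The C5 library is the one with the lowest trophectoderm marker mean, 4.68, and the C23 mono-culture library has 7.39.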

How the results depend on the processing

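No member changed direction after passing a test in any alternative run, and TGFB1 kept its calls in IVD tissue and in the average under every alternative and every left-out library or conceptus. INHBE lost its averaged call under the conceptus block (-1.49, adjusted p = 0.054), the title-number block (-1.19, adjusted p = 0.309), counts summed per conceptus (-2.09, adjusted p = 0.102) and limma voom (-1.51, adjusted p = 0.099), which left 1 member past FDR under the first 3, and without conceptus C23, C26, C47, C5 or C62b. In IVD tissue 2 members passed with 1 factor of unwanted variation, where INHBE had -1.51 (adjusted p = 0.024).

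Counts of genes past FDR moved more. For IVD co- against mono-culture they were 206 with the conceptus as replicate block, 555 with the title number as block, 1843 in limma voom, 1941 in DESeq2 and 2433 with the factor. For IVP co- against mono-culture they were 321 in DESeq2, 113 with the factor and 107 for summed counts, and DESeq2 gave 1 for IVP against IVD mono-culture. For IVP against IVD co-culture they were 152 in DESeq2, 146 with the factor, 15 for summed counts, 2 in limma voom, and 0 with the compared groups alone or the title-number block. The averaged count was 4600 with the factor and 1995 with the title-number block. Among uteri it was 3379 genes and 6 members without a filter, and 5540 genes and 7 members in DESeq2. The cause of these shifts was not tested.

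Leaving out 1 library gave 411 (without IVD co-culture replicate 8) to 1719 genes (without replicate 5) in IVD tissue, 0 to 208 in IVP tissue and 0 to 107 for IVP against IVD co-culture, both highest without IVP co-culture replicate 2, and 2205 to 3537 genes and 1 to 3 members in the average. Leaving out 1 conceptus gave 214 (without C26) to 1118, 0 to 354 (without C62a), 1 to 21 (without C24), and 1580 (without C62b) to 3599 with 1 to 3 members. Among conceptuses of one type the range was 2336 (without C47) to 3707 genes and 2 (without C71) to 6 members (without C24), and among uteri 251 (without E70) to 1071 genes and 0 to 1 member. INHBA and INHBE had 4 counts in their lowest library, so their lowest values carry the most counting error.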
